A study of Mus musculus with 11 samples.

Results

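The heat shock chaperones examined here were 10 genes given by symbol (Hspa1a, Hspa1b, Hspa8, Hsph1, Dnajb1, Hspb1, Hsp90aa1, Hspd1, Hspe1 and Bag3), and each matched 1 of the 31053 genes counted in 11 mouse liver sections. All 10 passed the filter on low counts and were tested in every comparison. In uninjured liver (0 h, 3 sections) they ran at a low or a constitutive level, at 24 h after acetaminophen (APAP, 2 sections) 8 of the 10 were higher, and by 36 h (2 sections) and 48 h (4 sections) most of that difference was gone. Within the 24 h sections the same transcripts were most abundant in the 10% of spots poorest in hepatocyte transcripts, and all 10 were higher there than in the remaining spots.

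Heat shock chaperones bind unfolded protein, keep it from aggregating and pass it on for folding or degradation. Their common regulator is heat shock factor 1 (HSF1), which is released when unfolded protein accumulates, forms trimers and binds heat shock elements, inverted repeats of the unit GAA in the promoters of its targets. In liver, APAP is turned by cytochrome P450 enzymes of the hepatocytes around the central vein into a reactive quinone imine that binds protein thiols, and that zone is where the injury lies. Hspa1a and Hspa1b encode the same inducible HSP70, Hspa8 its constitutive relative HSC70, Hsph1 (HSP110) the exchange factor and Dnajb1 (HSP40) the J-domain partner that drive the HSP70 cycle, Hspb1 (the mouse counterpart of HSP27) a small holding chaperone, Hsp90aa1 the inducible HSP90, Hspd1 and Hspe1 the HSP60 and HSP10 of the mitochondrial folding chamber, and Bag3 a co-chaperone that links HSP70 to selective autophagy.

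The sections came, per the study's methods, from male C57BL/6JCrl mice that were fasted before an intraperitoneal dose of APAP and sampled at 24, 36 or 48 h. The uninjured 0 h sections are labelled replicates 2, 3 and 4, the injured ones A and B at 24 h and at 36 h, and A, B, C and D at 48 h. Snap-frozen liver was cryosectioned onto Visium slides, where an array of barcoded capture spots, larger than single cells, binds polyadenylated RNA at its 3′ end and transcripts are counted by unique molecular identifiers (UMIs). The labels do not say which mouse, slide or run a section came from and the methods name 1 liver for each time in this assay. So n counts sections, p-values measure the spread among sections alone, and mouse, batch and time cannot be told apart. Clock times of dosing and sampling are not given, so sampling times 12 h apart may also differ in time of day. A spot holds several cells, and in such sums fewer cells of a type and less RNA per cell cannot be told apart.

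Sections held between 1490 and 3466 passing spots and 31292663 to 67045372 UMIs. The tissue matched its label, since the 6 hepatocyte markers were found in every section and summed to between 84900 and 122000 CPM. Neutrophil markers summed to between 1.98 and 7.86 CPM at 0 h and 38.4 to 136 CPM at 24 h, and the mitochondrial share of UMIs lay between 4.10% and 6.0% at 0 h and at 1.95% and 2.37% at 24 h. Their part in the differences below was not tested. CPM here means UMIs per 1000000 UMIs of the section total after TMM scaling, and a call means an adjusted p under 0.05 in edgeR's quasi-likelihood test. Genes are compared with themselves only, since the values are not per transcript length. Where sections of 2 groups are said to lie apart, that describes the sections, and the share of all genes that do so was not counted.

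The promoters are shown first because the family is known to respond through heat shock elements, though not every window held a match. RefSeq gave a window of 250 bases ending just before the transcription start for 8 of the 10 genes (build GRCm38.p6), with more than 1 start for Hspd1, Hsph1 and Dnajb1. Capitals mark an inverted pair of heat shock units, GAANNTTC or TTCNNGAA, both of which read the same on either strand and overlap wherever units follow one another. The Hspa1a window lay at chr17:34972157-34972406 and the Hspa1b window at chr17:34959239-34959488, both on the minus strand. The Hspb1 window lay at chr5:135887669-135887918 on the plus strand.
Hspa1a: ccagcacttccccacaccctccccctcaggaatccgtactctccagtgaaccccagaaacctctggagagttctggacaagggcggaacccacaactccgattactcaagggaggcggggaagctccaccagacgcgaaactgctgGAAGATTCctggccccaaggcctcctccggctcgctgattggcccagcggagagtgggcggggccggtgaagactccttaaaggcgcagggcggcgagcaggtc
Hspa1b: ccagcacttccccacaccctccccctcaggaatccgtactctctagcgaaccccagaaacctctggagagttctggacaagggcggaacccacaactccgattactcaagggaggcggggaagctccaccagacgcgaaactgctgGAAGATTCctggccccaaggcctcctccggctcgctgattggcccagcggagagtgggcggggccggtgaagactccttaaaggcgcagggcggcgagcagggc
Hspb1: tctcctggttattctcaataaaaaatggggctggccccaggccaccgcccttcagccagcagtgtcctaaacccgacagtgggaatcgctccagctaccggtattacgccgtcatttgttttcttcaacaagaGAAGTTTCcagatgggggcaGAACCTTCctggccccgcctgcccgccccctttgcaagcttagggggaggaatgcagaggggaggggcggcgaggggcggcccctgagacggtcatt

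The Hspa1a and Hspa1b windows differed at 3 of their 250 bases, C44T, T47C and T249G, with positions counted from 1 at the 5′ end and the Hspa1a base given first. Both held the same pair, outside these positions, 104 bases before the start. In Hspb1 pairs began 117 and 97 bases before the start. The densest match lay at the head-to-head genes Hspe1 and Hspd1, whose annotated 5′ ends lie 111 bases apart on opposite strands. There 4 units follow one another over 18 bases at chr1:55088059-55088076, read here on the Hspe1 (plus) strand, before the Hspe1 start and before the inner RefSeq start of Hspd1. In the annotation this stretch is also 5′ untranslated sequence of a longer Hspd1 transcript.
Hspe1: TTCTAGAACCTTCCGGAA
Hsph1 held a single pair, TTCTCGAA, at chr5:149636362-149636369 on the minus strand, 33 or 54 bases before its 2 RefSeq starts, and the Bag3 and Dnajb1 windows held none. Either pair was found in 12.8% of the 32851 RefSeq windows of this length, GAANNTTC in 6.69% and TTCNNGAA in 7.17%, and 3 adjoining units in either order in 0.466%. Of the 11 windows of the 8 members, 7 held a pair, and these belonged to 6 genes. In 2 windows, of Hspd1 and Hspe1, 3 units adjoined, both times in the shared stretch of 18 bases. CCAAT on either strand was in 33.8% of all windows and in 5 of the 11 member windows, from 4 members, Hspa1a, Hspa1b, Hsph1 and Dnajb1. TATAAA on the coding strand was in 7.59% of all windows and in the windows of 0 members. These matches are letters in a window and were not tested for binding.

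Hspa1a and Hspa1b lie on chromosome 17 (GRCm38, minus strand, 34969190 to 34972156 and 34956436 to 34959238), each a single exon, with starts 12918 bases apart. Their transcripts were identical at 90.7% of 2771 aligned bases, but their last 300 bases, where a 3′ assay reads, aligned over 275 bases at 53.5% identity. Reads of this pair may still have been split between them, so each is an uncertain value on its own, and counting both as 1 gene left 7 of 9 features called at 24 h against 0 h.

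The comparison of 24 h with 0 h asks how far the family had moved 1 day after the dose. It called 8 of the 10 members higher and 0 lower, where 41.7% of the 14821 genes tested were called in either direction. The median log2 fold change was 1.31 over the members and 0.05 over all genes. Hspa1a, of the inducible HSP70 pair, stood at 1.06, 6.79 and 2.51 CPM in the 0 h sections 2, 3 and 4 and at 167 and 99.9 CPM in the 24 h sections A and B. Its mean went from 3.45 ± 2.98 (SD, n = 3) to 134 ± 47.6 CPM (n = 2), a log2 fold change of 5.25 (SE 0.660, edgeR adjusted p = 0.000299). Both 24 h sections lay far above every uninjured one, and section 3 was the highest of the uninjured.

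Hspa1b had the values 12.2, 36.0 and 12.7 CPM at 0 h and 276 and 164 CPM at 24 h, a log2 fold change of 3.44 (SE 0.594, edgeR adjusted p = 0.00157). The lowest 24 h section was again above the highest uninjured one. Of the HSP70 partners, Dnajb1 had 27.8, 41.2 and 29.9 CPM at 0 h and 90.2 and 72.8 CPM at 24 h (log2 fold change 1.30, SE 0.172, edgeR adjusted p = 0.000255). Bag3 had 25.1, 36.0 and 29.5 CPM and then 84.5 and 66.5 CPM (1.32, SE 0.189, edgeR adjusted p = 0.000415). In both genes the lowest 24 h section lay above the highest 0 h section.

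The small chaperone Hspb1 measured 33.7, 30.6 and 38.0 CPM at 0 h and reached 365 and 351 CPM at 24 h, a log2 fold change of 3.39 (SE 0.656, edgeR adjusted p = 0.00281). The 2 injured sections were nearly alike, at about the same height above all uninjured ones. For these 5 genes, Hspa1a, Hspa1b, Hspb1, Dnajb1 and Bag3, the call held under every alternative processing tried.

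The other calls at 24 h were weaker. Hsph1 had 35.4, 41.2 and 45.0 CPM at 0 h and 152 and 102 CPM at 24 h (log2 fold change 1.65, SE 0.497, edgeR adjusted p = 0.0236). Hspa8, the constitutive HSC70, had 934, 1166 and 1130 CPM and then 2425 and 1709 CPM (0.94, SE 0.237, edgeR adjusted p = 0.00888). Hsp90aa1 had 163, 162 and 209 CPM and then 430 and 337 CPM (1.11, SE 0.392, edgeR adjusted p = 0.0438). In all 3 genes the groups did not overlap, a trait whose share over all genes was not counted, and the calls depended on single sections. Without the 24 h section A, 5 of 10 members were called, and Hsph1, Hspa8 and Hsp90aa1 were the 3 that dropped out. Hsph1 and Hsp90aa1 also dropped out without any 1 of the 0 h sections, and Hsp90aa1 without the 24 h section B.

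The mitochondrial pair was split. Hspe1 had 703, 682 and 823 CPM at 0 h and 1396 and 1016 CPM at 24 h, a log2 fold change of 0.71 that missed the threshold (SE 0.275, edgeR adjusted p = 0.0592), although both injured sections were above all uninjured ones. Hspd1 had 314, 307 and 332 CPM and then 384 and 307 CPM (0.12, SE 0.160, edgeR adjusted p = 0.57), and its groups overlapped. Without section A its log2 fold change was -0.05. Both genes lie beside the chained units shown above.

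**Figure D1:**
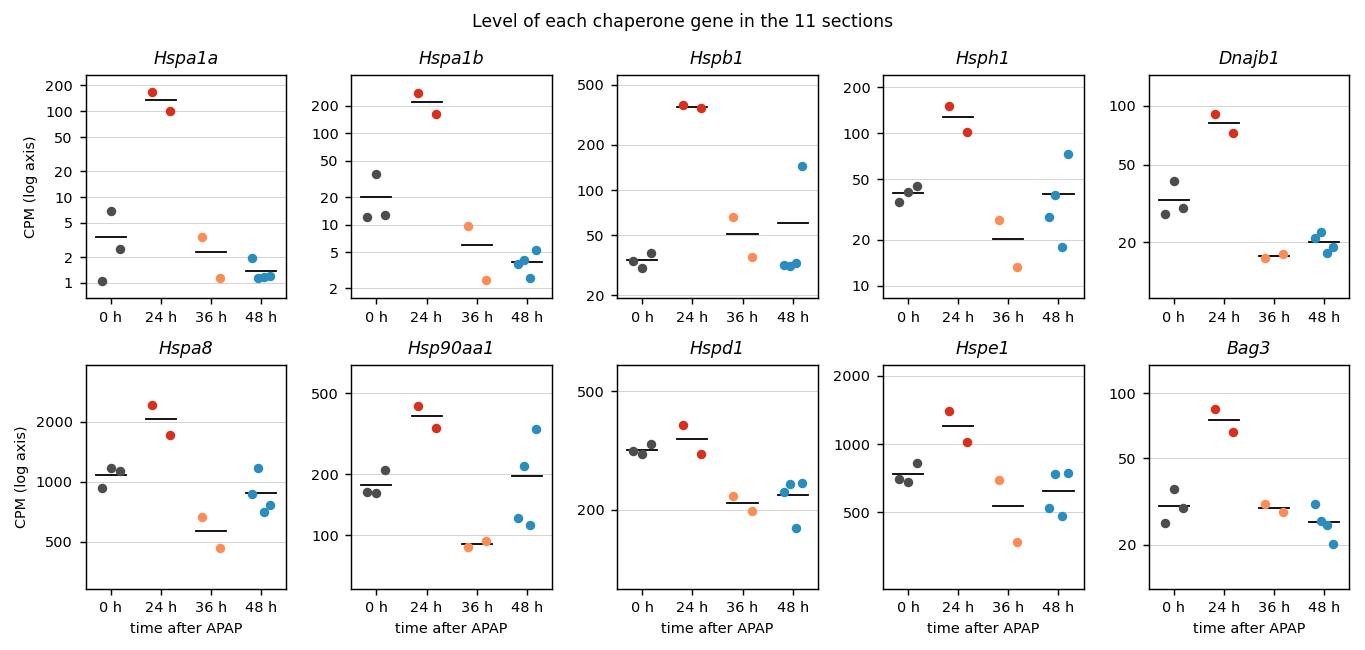
Level of each chaperone in each of the 11 sections, as TMM-scaled CPM on a log axis, with sections grouped by time after APAP (0, 24, 36 and 48 h), 1 point per section and a line at the group mean. Hspa1a lies at 167 and 99.9 CPM at 24 h and at or below 6.79 CPM in every other section, and the 48 h section D stands apart for Hspb1 at 145 CPM.

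The comparison of 36 h with 24 h follows the next 12 h, and all 10 members were lower, where 15.6% of genes were called in either direction. Their median log2 fold change was -2.17. Hspa1a was at 3.39 and 1.14 CPM at 36 h (log2 fold change -5.88, SE 0.823, edgeR adjusted p = 0.00468) and Hspa1b at 9.59 and 2.48 CPM (-5.19, SE 0.764, edgeR adjusted p = 0.00543). Dnajb1, at 16.6 and 17.5 CPM, fell by 2.26 on the log2 scale with the lowest p of the family (SE 0.201, edgeR adjusted p = 0.00077). The values of each of these genes at 36 h lay below both values at 24 h, and for Dnajb1 below all 3 uninjured sections too.

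Hspb1 was at 66.0 and 36.0 CPM at 36 h (log2 fold change against 24 h -2.81), Hsph1 at 27.0 and 13.2 CPM (-2.66), Hsp90aa1 at 87.9 and 93.5 CPM (-2.08) and Hspa8 at 662 and 464 CPM (-1.88). For Bag3 the 36 h values were 30.9 and 28.3 CPM (-1.35), for Hspe1 697 and 370 CPM (-1.18) and for Hspd1 223 and 198 CPM (-0.71). In none of these 7 genes did the sections of the 2 times overlap, and the share of all genes doing so was not counted. The edgeR adjusted p of these 7 genes ranged from 0.00423 for Hspa8 to 0.0345 for Hspb1. The count rests on the spread borrowed from the other time points. It was 5 of 10 without the 24 h section A, 5 without the 36 h section B, and 0 of 10 when the 4 sections of the 2 times were fitted alone, in which case the adjusted p was at least 0.122. Clock genes moved between these times as well: of the 9 listed, 4 were higher and 2 lower at 36 h, among them Ciart (log2 fold change 4.35), Dbp (3.69), Npas2 (-2.79) and Arntl (-1.39). Time of day and time after injury cannot be told apart here.

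Against 0 h, 3 of 10 members were lower at 36 h and 0 higher, near the 29.2% of genes called. They were Dnajb1 (log2 fold change -0.95, edgeR adjusted p = 0.00416), Hspa8 (-0.94, edgeR adjusted p = 0.0178) and Hspd1 (-0.59, edgeR adjusted p = 0.0215). In all 3 the 36 h sections lay under every uninjured section. The other 7 did not pass, with log2 fold changes from -1.75 for Hspa1b (SE 0.639) to 0.58 for Hspb1 (SE 0.636). The count was 5 without the 36 h section A and 1 without section B.

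At 48 h, 3 of 10 members were lower than at 0 h and 0 higher, below the 44.2% of genes called. Hspa1b had 3.73, 4.09, 2.62 and 5.22 CPM in sections A to D, all under the lowest uninjured value of 12.2 CPM (a log2 fold change of -2.38, SE 0.505, edgeR adjusted p = 0.00428). Dnajb1 had 21, 22.7, 17.7 and 19.1 CPM (-0.72, SE 0.145, edgeR adjusted p = 0.00268), and Hspd1 had 229, 244, 174 and 246 CPM (-0.51, SE 0.134, edgeR adjusted p = 0.0106). All sections of these genes at 48 h were below all uninjured ones. Hspa1a, at 1.97, 1.13, 1.16 and 1.20 CPM, missed the threshold (-1.36, SE 0.565, edgeR adjusted p = 0.0771) and overlapped the uninjured section 2.

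The direction of these small differences depends on the scaling. Total UMI counts in place of TMM put the median gene at 0.37, 0.49 and 0.54 at 24, 36 and 48 h against 0 h, where TMM put it at 0.05, 0.05 and 0.01, and the share of called genes that were higher went from 55.4%, 57.5% and 52.7% to 80.4%, 94.1% and 93.7%. For 36 h against 24 h and 48 h against 36 h the medians were 0.13 and 0.08 and the shares 68.1% and 74.2%, where TMM gave shares of 45.1% and 53.1%. On that scale 1 member stayed called at 36 h and 1 at 48 h, and the 48 h log2 fold change of Hspd1 was 0.02. The calls kept were the Dnajb1 call at 36 h and the Hspa1b call at 48 h. Values below are on the TMM scale.

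Between 36 and 48 h the edgeR test called 0 of the 10 members, where 3.05% of genes were called, 2 members had an unadjusted p under 0.05 (Hspa8 and Hsp90aa1), and DESeq2 called 1 (Hsp90aa1). A few sections nonetheless stood apart at 48 h. Section D had 145 CPM of Hspb1 where sections A, B and C had 31.7, 31.4 and 32.7 CPM. It was also the highest for Hsp90aa1, at 335 CPM against 122, 218 and 113 CPM, and for Hsph1, at 72.8 CPM against 28.3, 39.5 and 18 CPM. Its Hspa1a (1.20 CPM) and Dnajb1 (19.1 CPM) lay within the range of the other 3 sections, so section D was high for some members and not for others. Without section D the 48 h log2 fold change against 0 h went from 0.82 to -0.09 for Hspb1 and from 0.15 to -0.24 for Hsp90aa1, with no call either way.

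Where in the tissue the transcripts lay was asked in 3 ways, each from genes that are not members. Hepatocyte-poor spots were the 10% of each section's spots with the lowest score of 6 hepatocyte markers (Alb, Ttr, Trf, Hp, Hnf4a and Apoa1). The class is thus relative to its own section. Below a threshold at the 1st percentile of 0 h scores lay 0 spots of the 24 h section A and 1 of section B. Border spots touched a hepatocyte-poor spot and remote spots lay at least 3 grid steps away. Central-rich and portal-rich spots were the upper and lower tertile of a score of central over portal hepatocyte genes. UMIs were summed per class and section and the classes compared within sections by edgeR. The CPM of these class sums were scaled within each of the 3 fits.

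At 24 h all 10 members were higher in hepatocyte-poor than in other spots, where 27.6% of 14553 genes were called in either direction. Hspa1b had 741 CPM in the poor and 237 CPM in the other spots of section A, and 359 and 149 CPM in section B (log2 fold change 1.46, SE 0.0817, edgeR adjusted p = 2.65e-14). Hspa1a had 437 and 146 CPM in section A and 207 and 92.6 CPM in section B (1.39, SE 0.0863, edgeR adjusted p = 3.04e-13). Hspb1 had 814 and 336 CPM, then 717 and 327 CPM (1.21, SE 0.254, edgeR adjusted p = 0.00983). In each gene both sections went the same way, and the other spots too remained well above the 0 h level.

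Next came Dnajb1, with 164 and 88.1 CPM in section A and 142 and 68.7 CPM in section B (log2 fold change 0.97, SE 0.0825). Hsp90aa1 had 772 and 421 CPM, then 637 and 321 CPM (0.93, SE 0.156), and Hsph1 257 and 151 CPM, then 189 and 97.9 CPM (0.85, SE 0.0767). The mitochondrial pair, not called by edgeR at 24 h against 0 h, was higher here, Hspe1 by 0.77 (SE 0.0792) and Hspd1 by 0.64 (SE 0.0750). Hspa8 (0.33, SE 0.0904) and Bag3 (0.30, SE 0.0786) differed least. The edgeR adjusted p of these 7 genes ranged from 9.28e-11 for Dnajb1 to 0.00533 for Hspa8. The calls of Hspb1 and Bag3 were lost when either 24 h section was left out, and that of Hspa8 without section B.

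The same contrast at 0 h called 0 of 10 members in edgeR, with 1 at an unadjusted p under 0.05 (Dnajb1, -0.20), where 3.39% of genes were called. DESeq2 was not run on spot classes. The change of the contrast itself, 24 h minus 0 h, was positive and past the threshold for 8 of 10 members, where 14.6% of genes were called. It was 1.30 for Hspa1a (SE 0.228), 1.32 for Hspa1b (SE 0.135), 1.17 for Dnajb1 (SE 0.122), 1.0 for Hsp90aa1 (SE 0.207), 0.89 for Hsph1 (SE 0.112), 0.85 for Hspe1 (SE 0.103), 0.68 for Hspd1 (SE 0.0975) and 0.48 for Hspa8 (SE 0.117). Hspb1 (0.98, SE 0.381, edgeR adjusted p = 0.153) and Bag3 (0.32, SE 0.114, edgeR adjusted p = 0.0608) did not pass.

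**Figure D2:**
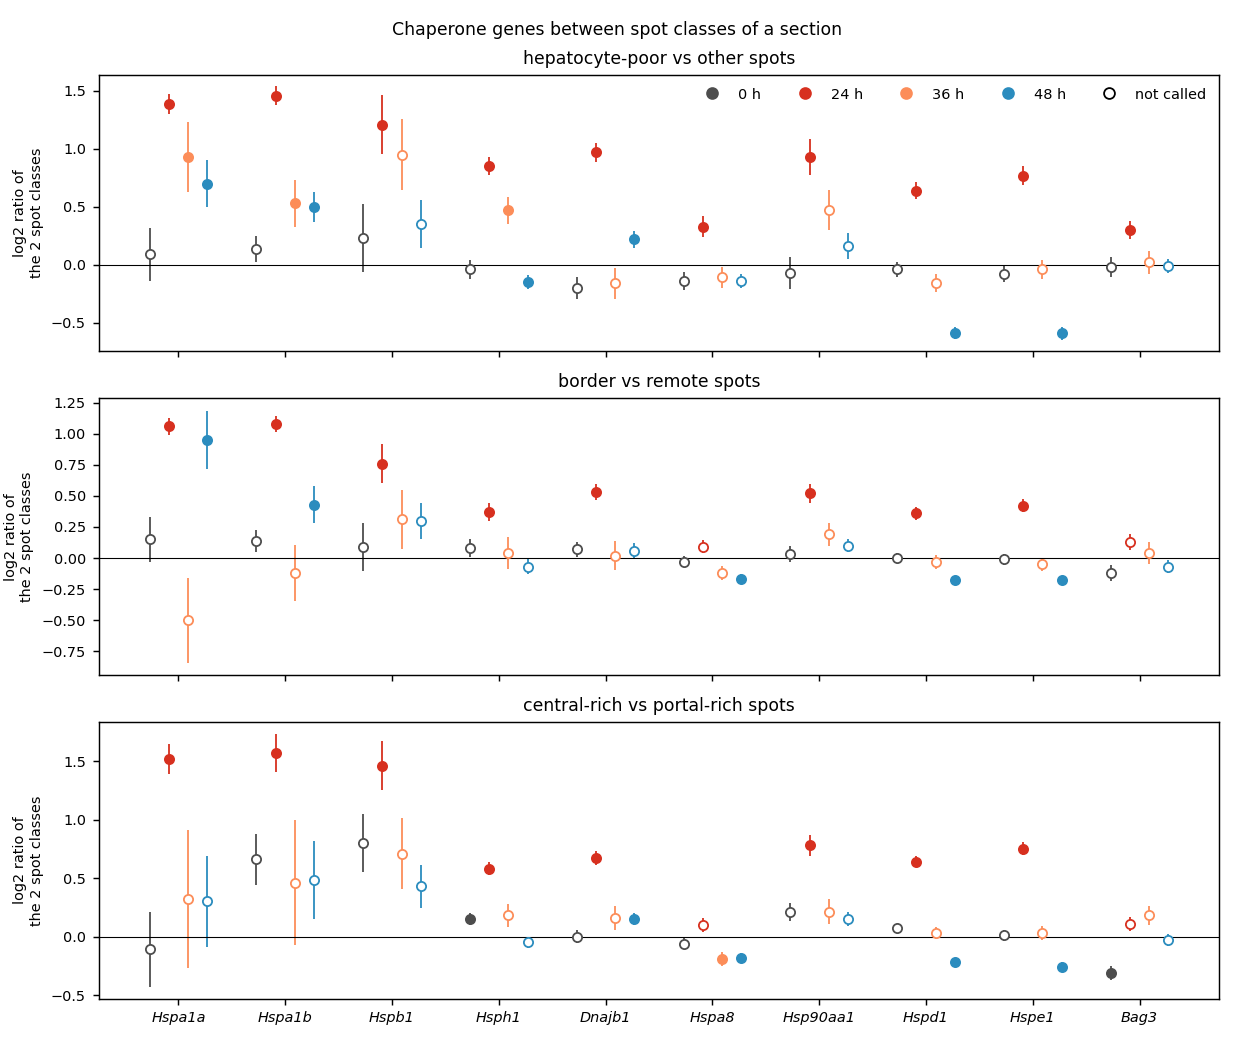
Fitted log2 ratio of each chaperone between spot classes at each time (points, with bars of 1 SE), for hepatocyte-poor against other, border against remote and central-rich against portal-rich spots. Filled points passed the test and open points did not. Between hepatocyte-poor and other spots the 24 h points of Hspa1a and Hspa1b lie highest, at 1.39 and 1.46, and all 0 h points are open.

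The poor class also differed in its mixture of cells, and the part of that mixture in the chaperone difference was not tested. In this contrast 27.6% of all genes were called in either direction. At 24 h the hepatocyte markers that set the class summed to between 55000 and 67000 CPM in poor spots and 109000 to 127000 CPM in the others. Of the mononuclear phagocyte markers 4 of 5 were higher in poor spots (962 to 1100 against 602 to 704 CPM), of the neutrophil markers 2 of 4 (77.5 to 291 against 36.3 to 124 CPM), of the mesenchymal markers 5 of 7 (282 to 331 against 201 to 254 CPM), of the endothelial markers 3 of 7 (258 to 284 against 221 to 238 CPM) and of the red blood cell markers 3 of 4 (536 to 2960 against 333 to 874 CPM). Of the T and B cell markers 1 of 6 was higher, at sums of 5.49 to 5.52 against 3.32 to 3.58 CPM with Cd3e at 0 in some sums. Of the cholangiocyte markers 0 of 4 were higher and 1 was lower, with sums of 1340 to 1700 against 1010 to 1150 CPM.

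After 24 h the contrast shrank and lost its common direction. At 36 h Hspa1a (log2 fold change 0.93, SE 0.298), Hsph1 (0.47, SE 0.116) and Hspa1b (0.53, SE 0.202) were higher in poor spots, with edgeR adjusted p between 0.00193 and 0.0438, so 3 of 10 members were called where 29.5% of genes were. That count was 0 without the 36 h section A, 1 without section B, and 5 without the 48 h section A or D. At 48 h, where 63.4% of genes were called, Hspa1a (0.70, SE 0.200), Hspa1b (0.50, SE 0.129) and Dnajb1 (0.22, SE 0.0712) were higher and Hsph1 (-0.15, SE 0.0635), Hspd1 (-0.59, SE 0.0540) and Hspe1 (-0.59, SE 0.0565) were lower in poor spots. The counts of 3 of 10 members at 36 h and 6 of 10 at 48 h were near the shares over all genes. The mitochondrial pair went from higher at 24 h to lower at 48 h, with Hspe1 at 444, 508, 372 and 562 CPM in poor spots and 598, 844, 559 and 864 CPM in other spots of sections A to D. With total UMI counts 9 members were called at 36 h and 10 at 48 h, and the 48 h value of Hsph1 was 0.32. With the threshold from 0 h scores the 48 h value of Hspa1a was -0.42.

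Border spots asked whether the difference reached beyond the poor spots. At 24 h 8 of 10 members were higher in border than in remote spots, where 9.71% of 13701 genes were called. Hspa1b had 328 CPM in border and 169 CPM in remote spots of section A and 202 and 83.9 CPM in section B (log2 fold change 1.08, SE 0.0637, edgeR adjusted p = 3.54e-15). Hspa1a followed at 1.06 (SE 0.0665), Hspb1 at 0.76, Dnajb1 at 0.53, Hsp90aa1 at 0.52, Hspe1 at 0.42, Hsph1 at 0.37 and Hspd1 at 0.36. Hspa8 (0.09, SE 0.0535) and Bag3 (0.13, SE 0.0633) did not pass. The Hspb1 call was lost when either 24 h section was left out, and that of Hsph1 without section B. At 0 h edgeR called 0 of 10 members, 0 had an unadjusted p under 0.05, and 2.12% of genes were called. The change of this contrast from 0 to 24 h passed for 6 of 10 members (Hspa1a, Hspa1b, Dnajb1, Hsp90aa1, Hspd1 and Hspe1), where 2.49% of genes did. At 36 h 0 members passed, 1 had an unadjusted p under 0.05 (Hspa8, -0.12) and 5.85% of genes were called. At 48 h 5 members passed, where 38.7% of genes did: Hspa1a (0.95) and Hspa1b (0.43) were higher and Hspa8 (-0.17), Hspd1 (-0.18) and Hspe1 (-0.18) lower in border spots. Each of these directions turned under an alternative. With poor spots set by a threshold from 0 h scores Hspa1a was at -0.37 and Hspa1b at -0.54, with total UMI counts Hspa8, Hspd1 and Hspe1 were at 0.05, 0.04 and 0.04, and with another thinning seed the Hspa1a and Hspa1b calls were lost (0.56 and 0.26). Behind the 48 h values of Hspa1a stood only 56 to 136 UMIs per section.

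The distance from the nearest poor spot showed the shape of the decline at 24 h. In section A, Hspa1b took 3.12 times its section-wide share of UMIs in the poor spots themselves, 1.26 times at 1 step, 0.503 times at 2 steps, 0.490 times at 3 steps and 1.09 times at 5 steps or more. In section B the shares were 2.52, 1.31, 0.662 and 0.455 times over the same first 4 classes, with 0.766 times at 5 steps or more. The farthest class held 77 and 82 spots, and the share there lay above that at 3 steps in both sections. Bag3 and Hspa8 were flattest, at 1.47 and 1.45 times in the poor spots of section A.

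**Figure D3:**
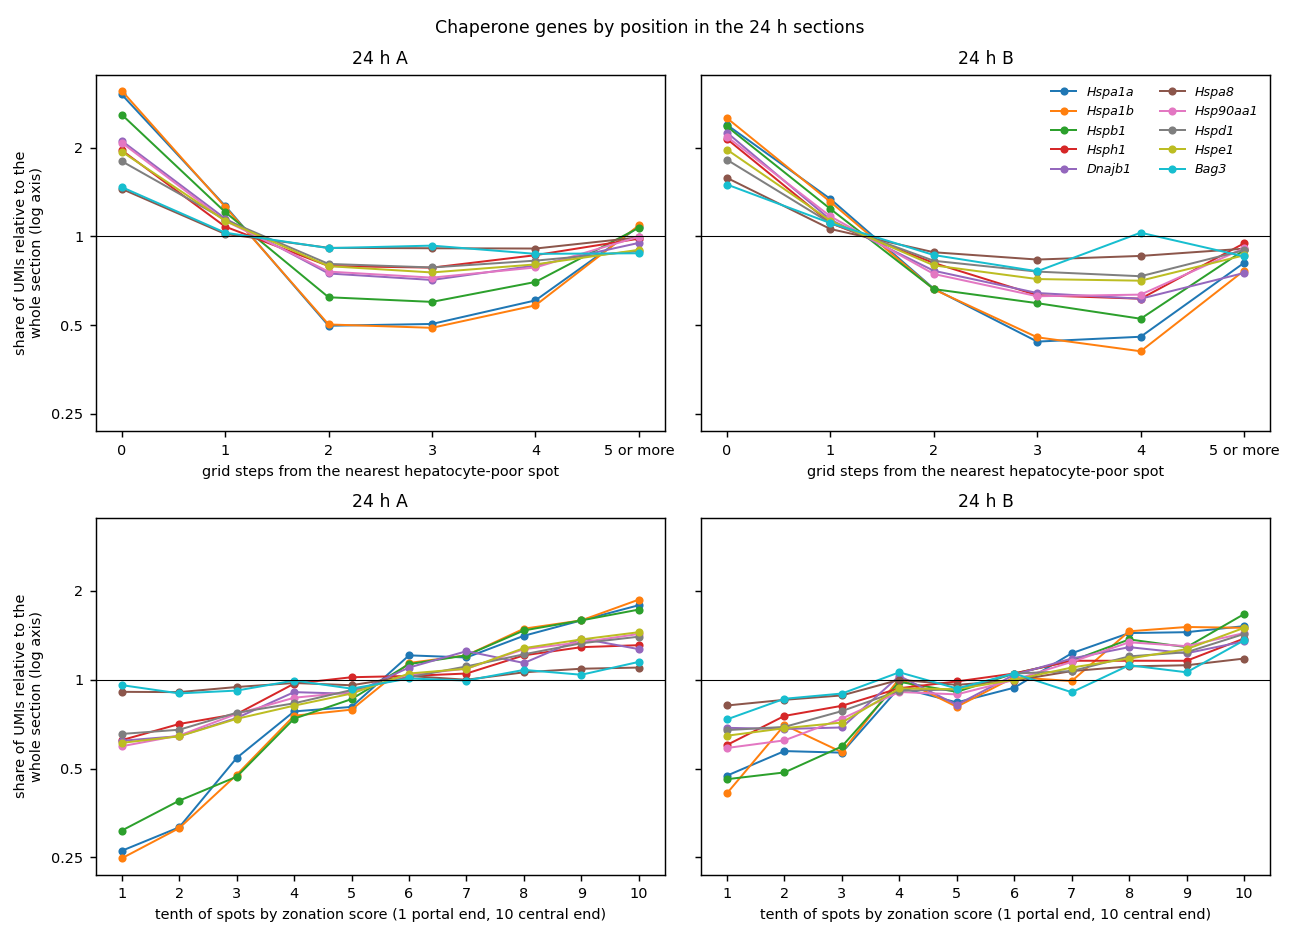
Share of UMIs of each chaperone relative to its share in the whole section, in the 24 h sections A and B, against grid steps from the nearest hepatocyte-poor spot and against deciles of the central over portal score. Hspa1b goes from 3.12 times in the poor spots of section A to 0.490 times at 3 steps, and from 0.248 times in its most portal decile to 1.87 times in its most central decile.

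On the score of central over portal genes, called the axis below, most members were higher at the central-rich end at 24 h. The class names describe this score, and position in the lobule was not measured. Of central genes outside the score, Oat (0.92) and Glul (0.31) were higher in central-rich spots at 24 h. Slc1a2 (0.24) and Rhbg (-0.33) did not pass. The portal genes Ass1 (-0.34) and Cps1 (-0.48), also outside it, were lower. Some genes of the central score were themselves far lower at 24 h than at 0 h, among them Elovl3 (-6.18) and Sult2a8 (-5.2). Across 24 h spots, members correlated with the score of the central genes alone at -0.065 (Hspa8) to 0.117 (Hspb1). With the portal genes alone the range was -0.357 (Hspb1) to -0.032 (Bag3), and with the hepatocyte score -0.37 (Hspa1b) to -0.03 (Bag3). So the members went with low portal and hepatocyte scores more than with a high central score. In central-rich against portal-rich spots 8 of 10 were higher at 24 h, where 22.7% of 13862 genes were called. Hspa1b had 411 CPM in central-rich and 108 CPM in portal-rich spots of section A and 221 and 101 CPM in section B (log2 fold change 1.57, SE 0.164, edgeR adjusted p = 0.000286). Hspa1a (1.52, SE 0.128) and Hspb1 (1.46, SE 0.211) were close to it. Hsp90aa1 (0.78), Hspe1 (0.75), Dnajb1 (0.67), Hspd1 (0.64) and Hsph1 (0.58) followed, while Bag3 (0.11, SE 0.0609) and Hspa8 (0.10, SE 0.0600) did not pass. The Hspb1 call was lost without the 24 h section A. By deciles of the score, Hspb1 went from 114 CPM in the most portal decile to 639 CPM in the most central decile of section A and from 159 to 577 CPM in section B (CPM of unscaled totals). Hspa8 went from 2231 to 2705 CPM in section A, a nearly level profile.

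At 0 h Hsph1 was higher (0.15, SE 0.0546) and Bag3 lower (-0.31, SE 0.0610) in central-rich spots, 2 of 10 members where 17.7% of genes were called. That share is near the background, and the Hsph1 call was lost in 7 alternatives, without any 1 of the 0 h sections among them (edgeR adjusted p up to 0.386). Hspb1 had 43.1, 40.5 and 49.9 CPM in central-rich and 26, 22.3 and 28.5 CPM in portal-rich spots without passing (0.80, SE 0.249, edgeR adjusted p = 0.0714). The change from 0 to 24 h passed for 7 of 10 members, where 15.1% of genes did, and ranged from 0.43 for Hsph1 and Bag3 to 1.63 for Hspa1a. Hspa1b (0.91, SE 0.278, edgeR adjusted p = 0.071), Hspb1 (0.66, SE 0.328, edgeR adjusted p = 0.252) and Hspa8 (0.16, SE 0.0776, edgeR adjusted p = 0.173) were the members that did not pass. Poor spots were unevenly placed on this axis, with 69.0% and 55.5% of them in the central-rich tertile at 24 h and 61.1% to 69.8% at 0 h. Without the poor spots the 24 h contrast still called 8 members.

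At 36 h 1 of 10 members passed on the axis, Hspa8 at -0.19, near the 8.08% of genes that did. That count was 0 without any 1 of the 0 h or 24 h sections or the 36 h section A. At 48 h 4 of 10 passed, near the 42.4% of genes that did: Dnajb1 at 0.15, Hspa8 at -0.18, Hspd1 at -0.22 and Hspe1 at -0.26. The mitochondrial pair, higher in central-rich spots at 24 h, was lower in them at 48 h with TMM. With total UMI counts the 48 h values of Hspd1, Hspe1 and Hspa8 were 0.00, -0.04 and 0.04 and none of these 3 calls held. Across the 15 comparisons of spot classes, total UMI counts raised the share of called genes that were higher from 29.6% to 51.9% with TMM to 65.6% to 87.6%.

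The maps put these classes on the tissue. The inducible pair, Hspa1a plus Hspa1b, gave at least 1 UMI in 90.8% and 83.7% of the spots of the 24 h sections A and B and in 5.70% to 49.3% of spots elsewhere. Spots with 20 or more such UMIs per 10000 numbered 127 in section A and 20 in section B and 0 in the other 9 sections. The order held at equal depth: after thinning each spot to 2000 UMIs, Hspa1b was seen in 30.2% and 24.3% of spots at 24 h and in 0.442% to 4.68% elsewhere. Neighbouring spots were alike at 24 h, with Moran's I of 0.219 and 0.116 for Hspa1b, 0.141 and 0.121 for Hspb1 and 0.122 and 0.076 for Hspe1, and between -0.006 and 0.009 for Bag3. The median of all genes was 0.003 and 0.004 in these sections. Across spots, thinned counts of Hspa1a and Hspa1b had Pearson correlations of 0.423 and 0.297 at 24 h and at most 0.063 at other times, a description of spots that share a library and, in part, reads. At those other times thinned Hspa1a was seen in at most 0.914% of spots, which leaves little room for a correlation.

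**Figure D4:**
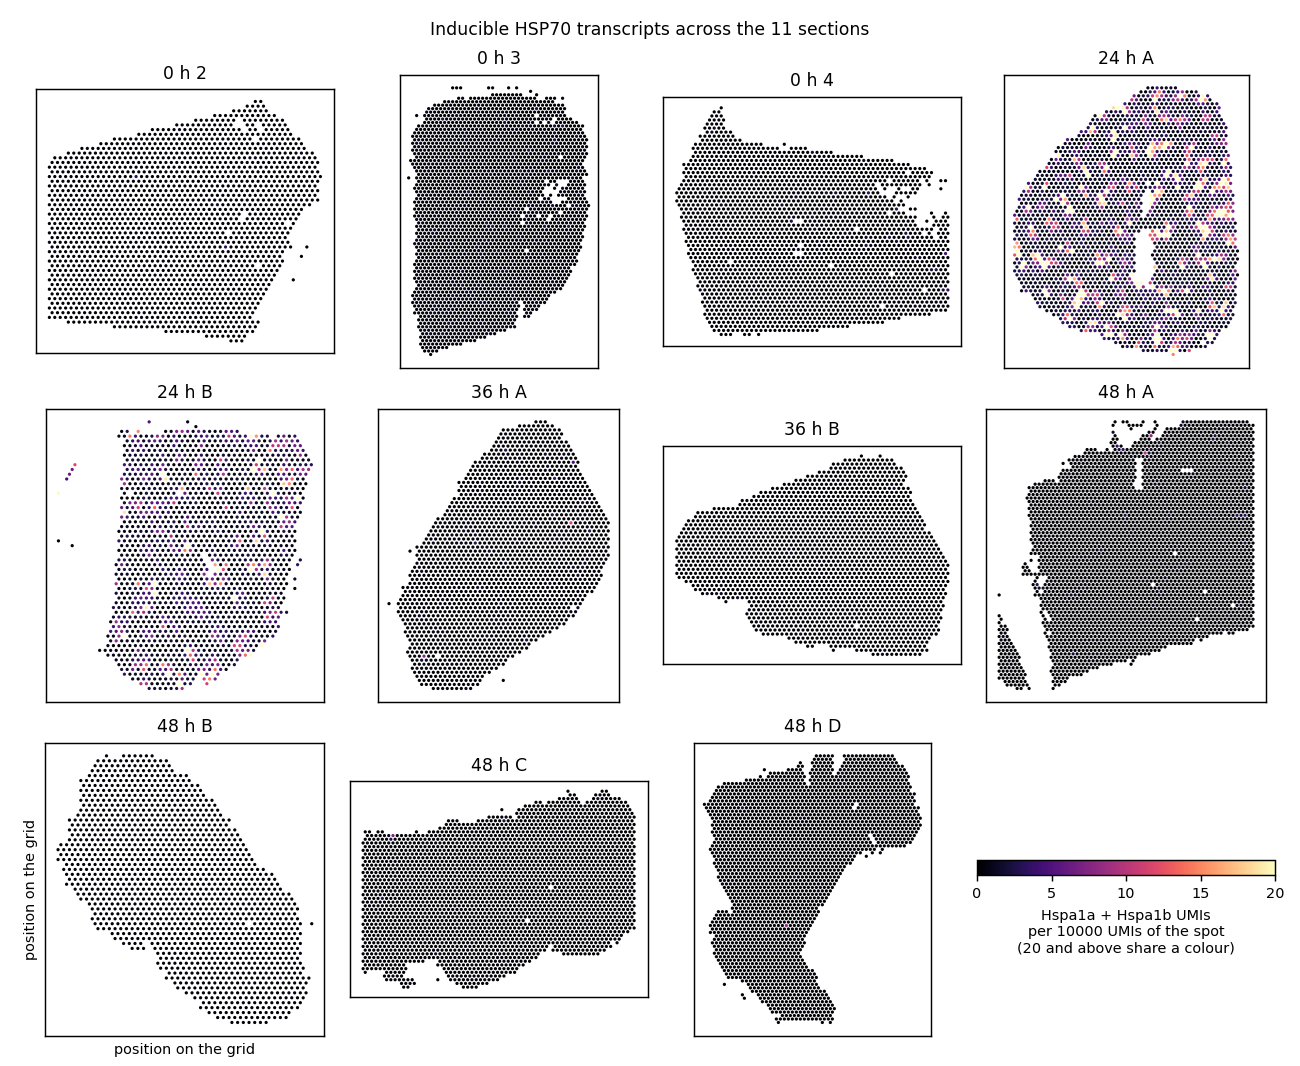
Hspa1a plus Hspa1b UMIs per 10000 UMIs in each passing spot, drawn at its array position, for all 11 sections on a common colour scale that is capped at 20. Spots with 20 or more per 10000 number 127 and 20 in the 24 h sections A and B and 0 in every other section.

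The other chaperones, from lists by compartment and family, moved in part at 24 h against 0 h, where 41.7% of all genes were called in either direction. The lists of endoplasmic reticulum and small chaperones lay above that share, and the HSP90, TRiC, HSP70 and HSP110, and BAG lists below it. In the endoplasmic reticulum (ER) 9 of 12 chaperones were higher and 0 lower, with a median log2 fold change of 1.0. They included Hspa5 (the ER HSP70, 1.6), Dnajb9 (1.44), Sdf2l1 (1.32) and Pdia6 (1.30). Of 5 relatives of the small chaperone Hspb1, Cryab (1.42) and Hspb8 (0.40) were higher and Hspb6 (-0.80) lower. Of 10 HSP90 genes and co-chaperones, 2 were higher, the ATPase activator Ahsa1 (0.87) and Chordc1 (0.66). Of 7 subunits tested of the cytosolic chaperonin TRiC, 2 were higher, Cct7 (0.58) and Cct3 (0.42). Of 8 relatives of HSP70 and HSP110, Hspa1l, a paralog of the inducible pair that may share its reads, was higher (1.67) and Hspa12a lower (-1.22). Both rest on few UMIs per section: 5, 6 and 3 at 0 h and 16 and 10 at 24 h for Hspa1l, and 42, 50 and 29, then 15 and 14, for Hspa12a. Of 7 BAG proteins and HSP70 regulators, the ubiquitin ligase Stub1 was higher (0.41) and Bag4 lower (-0.86).

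Of 8 further J-domain proteins edgeR called 0, with 2 at an unadjusted p under 0.05 and log2 fold changes between -0.46 and 0.40, and DESeq2 called 1 lower (Dnajb4, -0.46 in edgeR with an adjusted p of 0.054). Of 9 further mitochondrial chaperones and proteases 3 were lower, Clpx (-0.89), Hscb (-0.62) and Trap1 (-0.58), and 0 higher. Hsf1, which encodes the family's regulator, was higher (0.42, edgeR adjusted p = 0.0111). It was the 1 gene to pass of 3 on the heat shock factor list, which also holds a gene for a factor-binding protein. Immediate early genes, a set that answers to stress and tissue handling alike, were higher in 5 of 10, among them Fos (2.67), Atf3 (2.55), Egr1 (2.23) and Junb (2.04). Of the 2 cold-inducible genes, Cirbp was lower (-0.90) and Rbm3 went the other way (0.90, edgeR adjusted p = 0.085), a gene that DESeq2 called higher. Of 9 clock genes 2 were lower. The immediate early genes lay near the share of 41.7% over all genes, and the J-domain, mitochondrial, heat shock factor and clock lists below it.

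Across spot classes at 24 h the median of the ER chaperones had the opposite sign to that of the members, a difference between the 2 lists that was not tested. Of all genes 27.6% were called between hepatocyte-poor and other spots at 24 h, and 22.7% between central-rich and portal-rich spots (17.7% at 0 h). In hepatocyte-poor against other spots at 24 h, 10 of 12 ER chaperones were lower and 0 higher (median log2 fold change -0.45, against 0.89 over the members), for example Sdf2l1 (-0.67) and Pdia6 (-0.60). The 2 that did not pass were Hspa5 (-0.23, edgeR adjusted p = 0.175) and Dnajb9 (-0.20, edgeR adjusted p = 0.076). In central-rich against portal-rich spots 9 of 12 were lower at 24 h (median -0.32, against 0.71 over the members), without Hspa5 or Dnajb9, and 11 of 12 were lower at 0 h already (median -0.22). Of the TRiC subunits 4 of 7 were higher in poor spots and 6 of 7 in central-rich spots, on the side of the members, and Cryab was higher in poor spots by 1.42. At 36 h against 24 h edgeR called 1 of 12 ER chaperones lower (Dnajb9, -1.41) and DESeq2 called 5 (Dnajb9, Dnajb11, Dnajc3, Hspa5 and Pdia6), with a median log2 fold change of -0.82 in edgeR.

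The genes with the section profile most like the mean log2 CPM of Hspa1a and Hspa1b, of 9125 genes over 11 sections, were Chchd4 (Pearson's r = 0.971), Ik (0.970), Polr1c (0.968), Iffo2 (0.967) and Ufd1 (0.967). Their swings were far smaller, Chchd4 for example having group means of 20.6, 34.3, 18.8 and 19.4 CPM at 0, 24, 36 and 48 h. Among the members r was 0.955 for Bag3 and 0.952 for Dnajb1 and least for Hsp90aa1, at 0.654. Across spots of the 24 h sections, of 3810 genes, the summed pair went most closely with the ferritin genes Ftl1 (mean r = 0.381) and Fth1 (0.341), then Sprr1a (0.283), Actg1 (0.269) and Tmsb4x (0.233), and these spots share a library.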

How the data were processed

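The Visium 3′ assay was applied to 11 sections of mouse liver. The values used were raw UMI counts per gene and spot that the authors deposited for 31053 genes and 4992 spot barcodes per section, made with Space Ranger 1.0.0 against mm10 per the submitters' processing notes, which also name Seurat 4.1.1. Counting was by UMI, with no normalisation and no spot filter before deposit. From these counts, the spots inside the authors' tissue mask were kept if they had no fewer than 800 genes detected and mitochondrial UMIs made up no more than 20%, as the study's methods state, and were summed per section.

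Section sums were tested with edgeR 4.0.16 (R 4.3.3) by the quasi-likelihood F test with robust dispersions, TMM scaling and filterByExpr (14821 genes, common biological coefficient of variation 0.194), all 11 sections in 1 fit. Tests were two-sided, and p-values were adjusted by Benjamini-Hochberg across all tested genes of each comparison. The classes came from scores on spots thinned to 2000 UMIs, leaving out 0 to 5 shallower spots per section, and the full counts of a class were summed per section and fitted with the section as a block. A class needed at least 20 spots. The same steps were tested on simulated data.

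The sections are labelled as separate samples, and pairs within a group differed by far more than sampling noise (chi-square per gene of 42.1 to 226). Precision is set by the number of sections, and depth limits Hspa1a most, with 40 to 369 UMIs per section outside 24 h. Promoter windows and gene positions came from RefSeq (GRCm38.p6) and GENCODE M21 (GRCm38), the assembly that mm10 names.

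The members, and the lists of other chaperones, markers and clock genes, were chosen with earlier results of these data known. The central and portal lists were the study's own, drawn on its spatial data. All 10 members are named. Of each other list at most 4 genes are named, those called in a comparison with 0 h with the largest change at 24 h, and 5 genes are named for likeness over sections and 5 over spots. Cct6a did not match a counted symbol. Images were not used here. Alternatives were total-count and RLE scaling, no filter on low counts, DESeq2 1.42.0, all spots under the mask, the 2 groups alone, Hspa1a and Hspa1b summed, each section left out, other class definitions and another thinning seed. Leaving out the hepatocyte-poor spots was chosen after seeing the data.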

Additional observations from a re-analysis of the deposited data

Results flagged for a closer look

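Of the 10 members in the 4 sections at 48 h, 2 had a section far from the other 3. Hspb1 in section D was at 145 CPM where the others were between 31.4 and 32.7 CPM, a gap of 0.989 of the group's range. Hspa1a in section A was at 1.97 CPM where the others were between 1.13 and 1.20 CPM, a gap of 0.914 of the range. Chance alone marks about 1 in 20 groups in this way.

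The contrast between spot classes differed between 24 h and 0 h, by the test of that difference itself in edgeR, in 21 cases over the 10 members and 3 contrasts. Of all genes 14.6% did so for hepatocyte-poor, 2.49% for border and 15.1% for central-rich spots. Between hepatocyte-poor and other spots it differed by 1.30 for Hspa1a (adjusted p = 0.000103), 1.32 for Hspa1b, 0.89 for Hsph1, 1.17 for Dnajb1, 0.48 for Hspa8 (adjusted p = 0.0042), 1.0 for Hsp90aa1, 0.68 for Hspd1 and 0.85 for Hspe1 on the log2 scale. Between border and remote spots it differed by 0.91 for Hspa1a, 0.95 for Hspa1b (adjusted p = 3.37e-06), 0.46 for Dnajb1, 0.49 for Hsp90aa1, 0.36 for Hspd1 and 0.44 for Hspe1. Between central-rich and portal-rich spots it differed by 1.63 for Hspa1a (adjusted p = 0.0127), 0.43 for Hsph1, 0.67 for Dnajb1, 0.57 for Hsp90aa1, 0.57 for Hspd1, 0.74 for Hspe1 (adjusted p = 1.94e-08) and 0.43 for Bag3. All of these differences were positive, with the 24 h contrast the larger. The Hspa1a call between central-rich and portal-rich spots was lost without the 0 h section 3 (edgeR adjusted p = 0.117). Without the 24 h section B, the Hspa8 and Hsp90aa1 calls for poor spots and the Dnajb1 and Hsp90aa1 calls for border spots were lost. The Hsp90aa1 call for poor spots was lost without section A too.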

How the results depend on the processing

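Of the values of single members under alternatives other than leaving out a section, 707 kept direction and side of the threshold, 44 lost a call, 13 gained one and 18 turned sign. The causes were not tested except where fewer sections were fitted. Counts of called members that moved by over 1.5 times were as follows. Total-count scaling gave 1 at 36 h and 1 at 48 h against 0 h (3 each), 4 and 3 on the central-portal axis at 0 h and 36 h (2 and 1), and 9 and 10 for hepatocyte-poor spots at 36 h and 48 h (3 and 6). DESeq2 gave 5 where 36 h was set against 0 h, and 1 where 48 h was set against 36 h. No filter on low counts gave 4, 3 and 7 on the axis at 0, 36 and 48 h (48 h: 4), 5 for poor and 1 for border spots at 36 h (border: 0). Fitting only the 2 groups gave 0 for 36 h against 24 h. A split of the axis score at its median gave 0 at 36 h, and leaving out the poor spots gave 1 at 0 h. Another thinning seed gave 0 on the axis at 36 h, 1 for poor spots at 36 h and 3 for border spots at 48 h (5). Leaving out 1 section gave 5 to 8 at 24 h against 0 h, 1 to 5 at 36 h against 0 h, 5 to 10 at 36 h against 24 h, 1 to 4 and 0 to 1 on the axis at 0 h and 36 h, 0 to 5 for poor spots at 36 h, and 0 to 1 and 3 to 7 for border spots at 36 h and 48 h (3 without the 48 h section A). A replicate block by letter, in the injured sections alone, gave 5 for 36 h against 24 h where the same sections without the block gave 7, and turned Hspb1 to -0.65 for 48 h against 36 h. The letters were not shown to pair sections, since same-letter deviations correlated at 0.287 between 24 h and 36 h but at -0.124 and -0.122 between 24 h and 48 h. Values that turned sign under total counts were Bag3 at 36 h (0.41) and, at 48 h against 0 h, Hsph1 (0.49), Hspa8 (0.23), Hspd1 (0.02), Hspe1 (0.28) and Bag3 (0.27), and within 48 h sections Hspa8 (0.04) and Hspd1 (0.00) on the axis, Hsph1 (0.32) in poor spots, and Hspa8 (0.05), Hspd1 (0.04) and Hspe1 (0.04) in border spots. Hsph1 at 48 h was 0.01 without the poor spots. With poor spots set by the 1st percentile of 0 h scores, Hspa1a (-0.42) and Hsph1 (0.09) in poor spots and Hspa1a (-0.37) and Hspa1b (-0.54) in border spots turned at 48 h, and 24 h and 36 h were not run, having fewer than 20 such spots. Leaving out 1 section moved Hspd1 at 24 h from -0.05 to 0.27, Hspa1a from -1.63 to 0.36 and Bag3 from -0.16 to 0.11 at 36 h, Hspb1 from -0.09 to 1.03, Hsph1 from -0.50 to 0.21 and Hsp90aa1 from -0.24 to 0.34 at 48 h (all against 0 h), and, for 48 h against 36 h, Hspa1a from -1.31 to 0.27, Hspa1b from -1.30 to 0.66, Hspb1 from -0.67 to 0.74, Hspd1 from 0.00 to 0.19 and Hspe1 from -0.17 to 0.75. Calls lost in the most alternatives were Hsp90aa1 at 24 h against 0 h and Hspb1 at 36 h against 24 h (10 each, edgeR adjusted p up to 0.198 and 0.197), Hspa8 on the axis at 36 h (9), Hspe1 at 36 h against 24 h (8) and Hsph1 on the axis at 0 h (7).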
